A study of Mus musculus with 4 samples.

Results

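The transglutaminase genes examined were Tgm1, Tgm2, Tgm3, Tgm5, Tgm6 and Tgm7, 6 of 55413 annotated mouse genes. They were taken as a list, with Tgm3 named by the study. Peaks of 4 open-chromatin libraries were merged wherever they overlapped by at least 1 bp, and every merged region that touched the body of a listed gene or the 35 kb on either side of it was kept. This gave 40 of 82641 regions. Of these 40, the libraries WT 1 and WT 2 called 38 and 27, and Mapk8-KO 1 and Mapk8-KO 2 called 37 and 28. The region farthest from a gene body that was still kept lay 34756 bp from Tgm3 and was called in WT 1 only, with 18 fragments at its summit. The nearest region left out lay 35476 bp from Tgm2 and was called in Mapk8-KO 1 only, with 12 fragments.

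Chromatin was profiled by ATAC-seq, in which the Tn5 transposase cuts and tags accessible DNA, in keratinocytes sorted from mouse skin. Wild type (WT) mice gave 2 libraries. The other 2 were from Mapk8-KO animals, whose epidermis lacked JNK1, the kinase that Mapk8 encodes. Every mouse had received cream with 5% imiquimod, a Toll-like receptor agonist used to provoke psoriasis-like inflammation, for 8 days, so no library came from untreated skin. The comparison asked which open regions differed between keratinocytes with and without JNK1 during this inflammation. Per the study's methods, mice were females of 8 to 12 weeks on a C57BL/6 background. Mapk8-KO mice carried floxed Mapk8 alleles and a Cre transgene under control of keratin 14 regulatory DNA, so that deletion was limited to cells that use or have used this promoter. Controls were littermates labelled wild type, and whether they carried floxed alleles is not given in the sources used here. Cells were sorted as EpCam+ CD49f-high, a gate for basal-type keratinocytes, whereas cross-linking by transglutaminases takes place mainly in the differentiated layers above them.

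Transglutaminases are calcium-dependent enzymes that join glutamine and lysine side chains of proteins into stable cross-links. In the epidermis Tgm1, Tgm3 and Tgm5 cross-link proteins such as involucrin, loricrin and small proline-rich proteins into the cornified envelope, the rigid shell of dead surface cells, and loss of TGM1 function in people causes a scaling disorder, lamellar ichthyosis. JNK1 phosphorylates c-Jun, a subunit of the AP-1 factor, whose typical site is TGAGTCA and which is known to act at many genes of keratinocyte differentiation.

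The DNA under the summits that the results below return to is shown here, as 201 bases centred on the strongest summit and read 5′ to 3′ on the plus strand of mm10 (GRCm38). Tgm3 lies on the plus strand, and Tgm1, Tgm2, Tgm5 and Tgm7 on the minus strand. Capitals mark matches, on either strand, to TGAGTCA (AP-1), TTGCNNAA (C/EBP), GGGNGTGG (KLF) or the p63 core motif, and no matches overlap in these windows. AP-1 and C/EBP motifs stand in 23.7% and 11.4% of all 82641 regions within 100 bp of the summit, KLF motifs in 13.3% and p63 motifs in 8.78%. The first sequence is the Tgm3 promoter, at chr2:130012145-130012345, the only transglutaminase region whose WT and Mapk8-KO signals were apart at an unadjusted p below 0.05.
Tgm3 promoter: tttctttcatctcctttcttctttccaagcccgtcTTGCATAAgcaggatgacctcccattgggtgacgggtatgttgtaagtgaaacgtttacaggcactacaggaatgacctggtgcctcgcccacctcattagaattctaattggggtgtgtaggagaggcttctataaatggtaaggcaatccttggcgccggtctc
The second, at chr2:129999949-130000149, is the region 12300 bp upstream of Tgm3, which held both an AP-1 and a p63 match.
Tgm3 upstream region: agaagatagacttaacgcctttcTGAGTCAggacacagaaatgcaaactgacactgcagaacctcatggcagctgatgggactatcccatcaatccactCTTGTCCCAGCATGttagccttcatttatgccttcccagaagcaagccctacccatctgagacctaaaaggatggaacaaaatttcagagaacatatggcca
The next, at chr2:130029961-130030161, lies in an intron 17712 bp into Tgm3 and had the highest pileup of the Tgm3 window.
Tgm3 intron region: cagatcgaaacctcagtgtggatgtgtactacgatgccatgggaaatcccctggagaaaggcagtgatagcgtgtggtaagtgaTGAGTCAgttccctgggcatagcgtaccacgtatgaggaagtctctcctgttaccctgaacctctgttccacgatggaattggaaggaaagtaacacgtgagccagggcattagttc
For Tgm1, the upstream region with AP-1 and KLF matches, at chr14:55715097-55715297, and the intron region called only in Mapk8-KO libraries, at chr14:55711147-55711347, are shown.
Tgm1 upstream region: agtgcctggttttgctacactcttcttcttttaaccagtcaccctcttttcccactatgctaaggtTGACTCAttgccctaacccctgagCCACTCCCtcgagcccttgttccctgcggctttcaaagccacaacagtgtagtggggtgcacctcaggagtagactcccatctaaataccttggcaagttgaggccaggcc
Tgm1 intron region: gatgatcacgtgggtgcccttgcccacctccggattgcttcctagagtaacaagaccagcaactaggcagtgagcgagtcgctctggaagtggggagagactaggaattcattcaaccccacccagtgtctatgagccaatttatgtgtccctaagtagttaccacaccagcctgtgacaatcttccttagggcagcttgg
For Tgm2, the region upstream at chr2:158154765-158154965 was called in 3 libraries and carried an AP-1 and a C/EBP match.
Tgm2 upstream region: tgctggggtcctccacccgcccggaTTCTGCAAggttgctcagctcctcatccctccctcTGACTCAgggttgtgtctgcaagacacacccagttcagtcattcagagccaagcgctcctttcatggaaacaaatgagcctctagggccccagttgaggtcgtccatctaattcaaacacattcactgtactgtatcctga
For Tgm5, the region between this gene and Tgm7, at chr2:121092227-121092427, ranked highest among those nearest to Tgm5.
Tgm5 upstream region: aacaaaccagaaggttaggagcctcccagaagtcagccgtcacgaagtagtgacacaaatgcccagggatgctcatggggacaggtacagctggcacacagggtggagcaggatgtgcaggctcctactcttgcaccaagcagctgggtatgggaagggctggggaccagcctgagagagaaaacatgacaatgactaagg

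The libraries differed in depth across replicate numbers rather than genotypes. WT lists had 69927 and 54856 intervals and Mapk8-KO lists 69583 and 49856, and the summit pileup, that is the number of fragments stacked over a peak's highest point, had a median of 33, 28, 36 and 26. With WT 1 set to 1.00, depth over shared regions was 0.691 for WT 2, and 1.12 and 0.644 for the Mapk8-KO pair, and depth-adjusted pileups below are divided by these factors. Of 7 keratinocyte marker promoters, 5 to 7 were called in each library, of 5 suprabasal ones 3 or 4 (that of Flg in none), and of 6 immune ones 0 or 1, with Ptprc, Cd3e, Itgam, Cd207 and Csf1r uncalled in every library. Their summed depth-adjusted pileup was 231 to 292 in WT and 388 to 429 in Mapk8-KO for keratinocyte markers, 165 to 198 and 188 to 206 for suprabasal ones, and 0 to 18.0 and 18.8 to 23.3 for immune ones. Promoters without a call added 0 to a sum. The gap between genotypes in the keratinocyte sum lay at the Krt14 promoter, the mouse counterpart of the promoter in the Cre transgene. The Krt14 promoter stood at 38.0 and 24.6 in WT and 178 and 169 in Mapk8-KO. Promoters of fibroblast markers (2 of 3 in every library), endothelial markers (1 or 2 of 3) and melanocyte markers (3 of 4, Tyr not called) were also open, with sums of 63 to 69.4 in WT and 69.9 to 73.5 in Mapk8-KO for fibroblasts, 50 to 78.1 and 34.2 to 58.3 for endothelium, and 139 to 141 and 151 to 186 for melanocytes. The part of other cells in the transglutaminase signals was not tested. Peak lists measure neither Mapk8 RNA nor the deleted exon, so the genotype labels were not checked here. In such bulk libraries, a smaller fraction of cells with a region open and less opening per cell cannot be told apart.

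Open regions were unevenly distributed over the family. The Tgm3 window held 14 regions, 8 of them touching the gene body, and that of Tgm1 held 13, 4 of them in the body. Tgm5 had 8 regions, 5 in the body. Tgm7 had 6, none in its own body and 5 of them shared with the neighbouring Tgm5 window. Tgm2, the tissue transglutaminase found in many cell types, had 3 regions, and Tgm6, known mainly from neurons, had 1, outside its body. Among the relatives not on the list, Tgm4 of the prostate had 1 region, Epb42, the inactive relative in the red cell membrane, had 4, and neither had any in its body. F13a1, coding for the A subunit of clotting factor XIII, had 1 region, called in Mapk8-KO 1 only.

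In each genotype the deeper library had more transglutaminase regions called than the shallower one, and the counts did not separate the genotypes. The 38 and 27 regions of the WT libraries gave a mean of 32.5 ± 7.78 (SD, n = 2), and the 37 and 28 of the Mapk8-KO libraries a mean of 32.5 ± 6.36 (SD, n = 2). The difference was 0 (two-sided exact permutation test over libraries, p = 1.00), in a design whose smallest possible p is 0.333. These counts were 95%, 67.5%, 92.5% and 70.0% of the 40 regions in WT 1, WT 2, Mapk8-KO 1 and Mapk8-KO 2, beside 83.8%, 65.2%, 83.2% and 59.1% of all regions. All 4 libraries called 23 of the 40 (57.5%, against 48.6% of all regions), and 4 were called in 1 library only (10.0%, against 21.7%). Those called in both deep libraries and neither shallow one numbered 4 (10.0%, against 7.91%). WT 2 alone missed 4 (10.0%, against 4.86%), which are 3 of Tgm3 and 1 of Tgm5, and Mapk8-KO 2 alone missed 4 (10.0%, against 9.91%), which are 2 of Tgm2, 1 near Tgm7 and 1 near Tgm1. No region was WT-specific, called in both WT libraries and neither Mapk8-KO library, where 2.17% of all regions were. A single region, in Tgm1, was Mapk8-KO-specific (2.50%, against 1.65%).

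**Figure D1:**
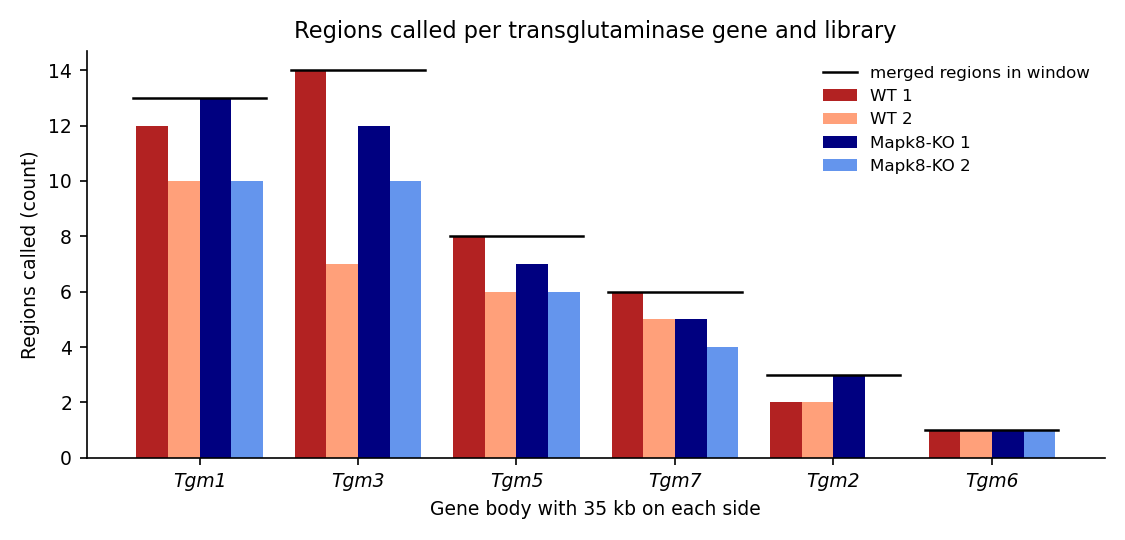
Number of merged regions called in each library (bars) within each gene body and 35 kb on either side, with the number of merged regions in the window as a black line; regions shared by Tgm5 and Tgm7 count for both. The Tgm3 bars run from 7 in WT 2 to 14 in WT 1, and no Tgm2 region was called in Mapk8-KO 2.

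Tgm3, whose proenzyme is activated by proteolysis in differentiated keratinocytes and hair follicles, was the locus with the widest spread of calls (ENSMUSG00000027401.9, chr2:130012349-130050399). Of its 14 regions, the WT libraries called 14 and 7 and the Mapk8-KO libraries 12 and 10, a mean of 10.5 ± 4.95 in WT and 11 ± 1.41 in Mapk8-KO (SD, n = 2 each). The 2 WT libraries were thus the highest and the lowest of the 4, and the exact permutation test gave p = 1.00. All 7 regions called in WT 2 were called in every library.

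The Tgm3 promoter region (chr2:130011962-130012570), which spans the transcription start, had a summit 104 bp upstream of it. Its pileup was 41 and 37 in the WT libraries and 41 and 18 in the Mapk8-KO libraries, which is 41.0 and 53.5, and 36.8 and 27.9, after depth adjustment. The lowest adjusted value was that of Mapk8-KO 2. The log2 difference, WT minus Mapk8-KO, was 0.55 (SE 0.26, 95% interval 0.02 to 1.08). It did not pass the test in limma over all 40159 shared regions, with an adjusted p of 0.458 and an unadjusted one of 0.0435. Of all shared regions 10.4% had an unadjusted p below 0.05, and of the 23 transglutaminase ones only this promoter did. As deposited fold enrichment over local background, the 4 values were 7.45, 8.53, 8.12 and 5.35, so that Mapk8-KO 1 lay between the WT libraries, and the log2 difference was 0.26 (limma, adjusted p = 0.883). The pileup difference was 0.51 with quantile normalisation, 0.32 without Mapk8-KO 2, 0.37 without WT 2, 0.74 without WT 1 and 0.75 without Mapk8-KO 1. Over 9 other limma fits adjusted p ran from 0.142 to 0.942. The C/EBP match in its sequence also lies in the stretch around the start that RefSeq gives as the Tgm3 promoter, and 10.8% of 32851 such RefSeq promoters (GRCm38.p6) hold one.

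Just inside the gene, an intron region with its summit at 593 bp had pileups of 22, 22 and 14 in WT 1, Mapk8-KO 1 and Mapk8-KO 2 and was not called in WT 2. The adjusted levels of the 3 called libraries, 22.0, 19.7 and 21.7, hardly differed. At a like background WT 2 held calls down to 10 fragments, or 14.5 adjusted.

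Of 6 regions farther upstream of Tgm3, 3 were called in every library. The one at 12300 bp, with the AP-1 and p63 matches printed above, had adjusted pileups of 33.0 and 39.1 in WT and 30.5 and 26.4 in Mapk8-KO. The log2 difference of 0.34 (SE 0.28) did not pass the test (limma, adjusted p = 0.715). At 25932 bp upstream, the best ranked of the regions nearest to Tgm3 had 29.0 and 43.4 in WT and 29.6 and 35.7 in Mapk8-KO, with both Mapk8-KO values between the WT ones. At 31884 bp the values were 21 and 44.9 in WT and 29.6 and 40.4 in Mapk8-KO, again nested. The region at 8050 bp was missing from WT 2 and stood at 28.0, 29.6 and 27.9 in the others, a very narrow range. A weak region at 19370 bp was called in the deep libraries only, at 11 fragments in WT 1 and 17 in Mapk8-KO 1.

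Within the Tgm3 introns, the region at 17712 bp (chr2:130029892-130030217) had the highest summit pileup of the window, while the region 25932 bp upstream ranked higher by deposited fold in WT 2 and Mapk8-KO 2. Its pileups of 83, 53, 84 and 46 in WT 1, WT 2, Mapk8-KO 1 and Mapk8-KO 2 became 83.0, 76.7, 75.3 and 71.4 after depth adjustment, which is a spread of few fragments over the 4 libraries. The log2 difference was 0.12 (SE 0.19, 95% interval -0.27 to 0.51), and the fold percentiles among shared regions, 60.4, 58.4, 55.5 and 60.2, overlapped. A neighbour with an AP-1 match at 15745 bp had adjusted values of 36.0, 60.8, 43.9 and 46.6, the WT libraries lying on both sides of the Mapk8-KO ones. At 28019 bp the values were 62.0, 34.7, 52.9 and 41.9, with the same nesting. The region at 34787 bp, the 1 in the Tgm3 window with a CREB/ATF match (TGACGTCA), was called in the deep libraries only, at 29 fragments in WT 1 and 22 in Mapk8-KO 1. The shallow libraries held calls down to 8 fragments at a like background, so the region would have been callable there at 11.6 (WT 2) or 12.4 (Mapk8-KO 2) adjusted fragments. At 21911 bp, another region with an AP-1 match had 29.0, 26.0 and 21.7 in WT 1, Mapk8-KO 1 and Mapk8-KO 2, and it was not called in WT 2. The remaining pair of Tgm3 regions was called in WT 1 only, with 10 and 18 fragments. Over the 7 shared Tgm3 regions the median log2 difference was 0.12, and 5 of the 7 were higher in WT, beside a median of -0.01 and 19791 of 40159 for all shared regions.

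**Figure D2:**
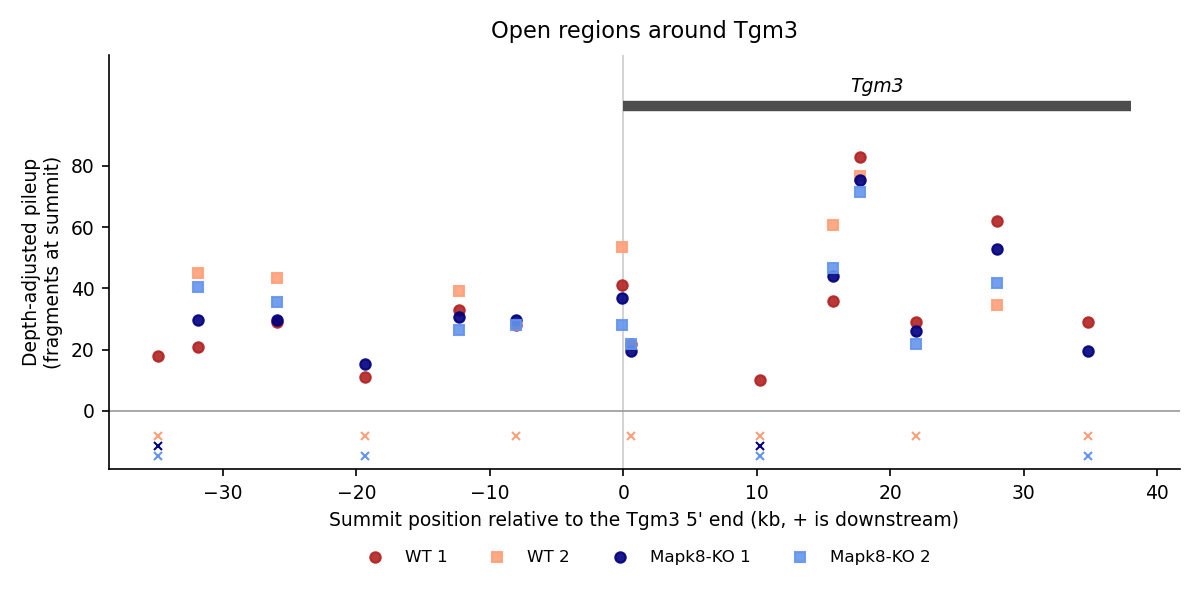
Depth-adjusted summit pileup (fragments) of the 14 regions around Tgm3 against the summit's distance from the gene's 5′ end (kb), for WT 1, WT 2 (red and salmon) and Mapk8-KO 1, Mapk8-KO 2 (dark and light blue); crosses below 0 mark libraries without a call, and the grey bar is the gene body. The 4 points lie close together at the highest intron region, from 71.4 to 83.0, and spread from 27.9 to 53.5 at the promoter.

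Tgm1, the membrane-anchored keratinocyte transglutaminase (ENSMUSG00000022218.16, chr14:55700009-55713926), had 13 regions, of which 9 were called in every library and none differed by limma. Its promoter-proximal region (chr14:55713784-55714434), with the summit 863 bp upstream of the nearest start site, had pileups of 48, 33, 46 and 29 in WT 1, WT 2, Mapk8-KO 1 and Mapk8-KO 2. Adjusted for depth these were 48.0, 47.7, 41.2 and 45.0, a spread of few fragments, and the log2 difference was 0.15 (SE 0.24, limma, adjusted p = 0.878). A stronger region 1703 bp upstream of that start (chr14:55714799-55715555), with the AP-1 and KLF matches, reached 67, 55, 75 and 34 fragments. The adjusted values were 67.0 and 79.6 in WT and 67.2 and 52.8 in Mapk8-KO, so the groups overlapped by a fraction of a fragment, and the difference was 0.29 (SE 0.21, limma, adjusted p = 0.664). Near the 3′ end of the gene, the best ranked region nearest to Tgm1 held an AP-1 match and had adjusted values of 24.0, 30.4, 26.0 and 23.3, which overlapped.

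The only genotype-specific call of the family lay in a Tgm1 intron, 2679 bp from the gene's 5′ end (chr14:55711213-55711446), where the gene model Gm49067 overlaps Tgm1. It was called in both Mapk8-KO libraries, with 36 and 23 fragments at the summit, or 32.3 and 35.7 adjusted, and in neither WT library. By fold enrichment it was among the weakest calls of its lists, while its pileups were at or near the list medians of 36 and 26. Its fold enrichment was 3.44 and 3.43, with deposited q values of 4.13e-09 and 5.27e-06, and it ranked at percentile 4.05 and 1.10 of the lists. The local background in this stretch was high, an expected 9.03 fragments in WT 1 and 6.24 in WT 2. At such a background the lowest pileup that was called was 22 in WT 1 and 18 in WT 2, which is 22.0 and 26.0 adjusted, below both Mapk8-KO values. The lists do not give a pileup for an uncalled region, so the size of the difference could not be measured and no test was made. When all lists were cut to the length of the shortest, the region was no longer called as Mapk8-KO-specific. No AP-1, C/EBP, GRHL (AACNNGTT), KLF, CREB/ATF or p63 match fell within 100 bp of its summit.

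A further Tgm1 intron region, 11324 bp from the gene's 5′ end, was called in WT 1 and Mapk8-KO 1 only, at 21 and 18 fragments. The remaining regions of the Tgm1 window were nearest to starts of other genes. The strong region 10656 bp upstream, nearest to Rabggta, had adjusted values of 74.0, 89.7, 106 and 68.3, and the one at 20110 bp, nearest to Dhrs1, had 65.0, 81.0, 80.7 and 51.2. In both, Mapk8-KO 1 and Mapk8-KO 2 lay farther apart than the genotype means. The region 31982 bp downstream of the 5′ end, at the start of Gm49067, was the most even, at 70.0, 69.4, 69.0 and 76.1. The median log2 difference over the 9 shared regions was -0.04, and 4 of the 9 were higher in WT. Over the shared regions nearest to Tgm1 alone the median was 0.15.

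**Figure D3:**
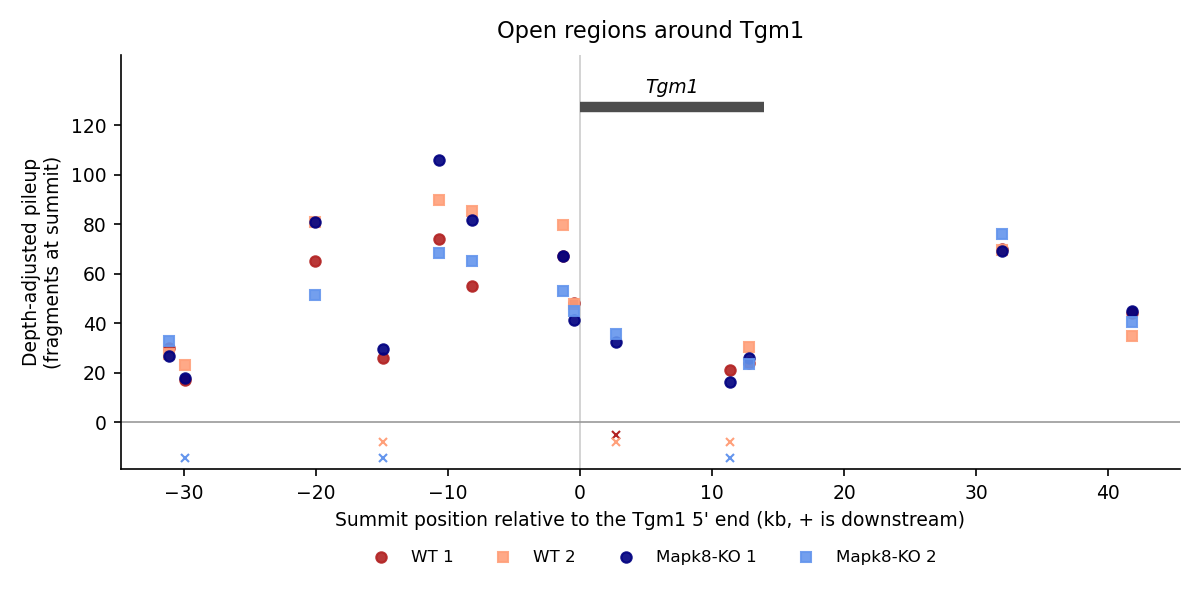
Depth-adjusted summit pileup (fragments) of the 13 regions around Tgm1 against distance from the gene's 5′ end (kb, positive values downstream), with libraries, crosses and gene body drawn as for Tgm3. At 2.7 kb, inside the gene, only the Mapk8-KO libraries have points, at 32.3 and 35.7, and crosses stand for both WT libraries.

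Tgm5, another envelope cross-linker, whose loss in people causes peeling of the outer epidermis, and Tgm7, a little studied member, lie next to each other (chr2:121046111-121085841 and chr2:121093565-121109795). The Tgm5 promoter region (chr2:121085414-121085967) was called in every library at a low level, with pileups of 20, 17, 19 and 20 in WT 1, WT 2, Mapk8-KO 1 and Mapk8-KO 2. The adjusted values of 20 and 24.6 in WT lay between the Mapk8-KO values of 17.0 and 31.0, and the log2 difference was -0.05 (SE 0.31, 95% interval -0.69 to 0.58). RefSeq's promoter window of Tgm5 holds a GRHL match, as do 4.20% of such windows. A second region within 2 kb of this start, 1470 bp into the gene, was called in WT 1 only, with 24 fragments, where calls in the other libraries at a like background went down to 9.86 to 13 adjusted fragments.

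The region 6486 bp upstream of Tgm5 was far more open. Its pileups of 81, 51, 75 and 53 became 81.0, 73.8, 67.2 and 82.3, and its fold percentiles among shared regions were 90.7, 84.8, 90.6 and 93.0. Both measures overlapped between genotypes, with a log2 difference of 0.06 (SE 0.19, 95% interval -0.34 to 0.45). A Tgm5 intron region at 29644 bp was about as strong and as even, at 86.0, 89.7, 93.2 and 86.9 adjusted fragments. At 6099 bp a weaker intron region, with C/EBP and KLF matches, had 24.0 in WT 1 and 15.9, 15.2 and 17.1 in the other libraries, so WT 1 alone stood above them. Over its 5 shared regions Tgm5 had a median log2 difference of 0.03, with 3 higher in WT.

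Tgm7 had no open region in its body and none within 2 kb of its GENCODE start. The 1 region in the Tgm7 window alone was the joint promoter of Lcmt2 and Adal, at 62.0 and 70.9 in WT and 63.6 and 85.4 in Mapk8-KO, which overlapped.

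Tgm2 (ENSMUSG00000037820.15, chr2:158116402-158146436), which also acts outside cells and binds guanine nucleotides, had few open regions and a weak promoter signal. The promoter region (chr2:158146296-158146556) had 19 fragments in WT 1, 9 in WT 2 and 19 in Mapk8-KO 1, or 19.0, 13 and 17.0 adjusted, and no call in Mapk8-KO 2. The region 8429 bp upstream (chr2:158154627-158154962), with the AP-1 and C/EBP matches, had 24, 31 and 29 fragments, or 24.0, 44.9 and 26.0 adjusted, and was likewise not called in Mapk8-KO 2. WT 2 was highest and the other called libraries were close to each other. Mapk8-KO 2 held calls down to 8 fragments at a like background, or 12.4 adjusted, so a summit as high as in Mapk8-KO 1 would have been callable there. Mapk8-KO 1 alone had a further region, in an intron, with 15 fragments. Since the Mapk8-KO libraries disagreed at all 3 Tgm2 regions, none separated the genotypes.

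**Figure D4:**
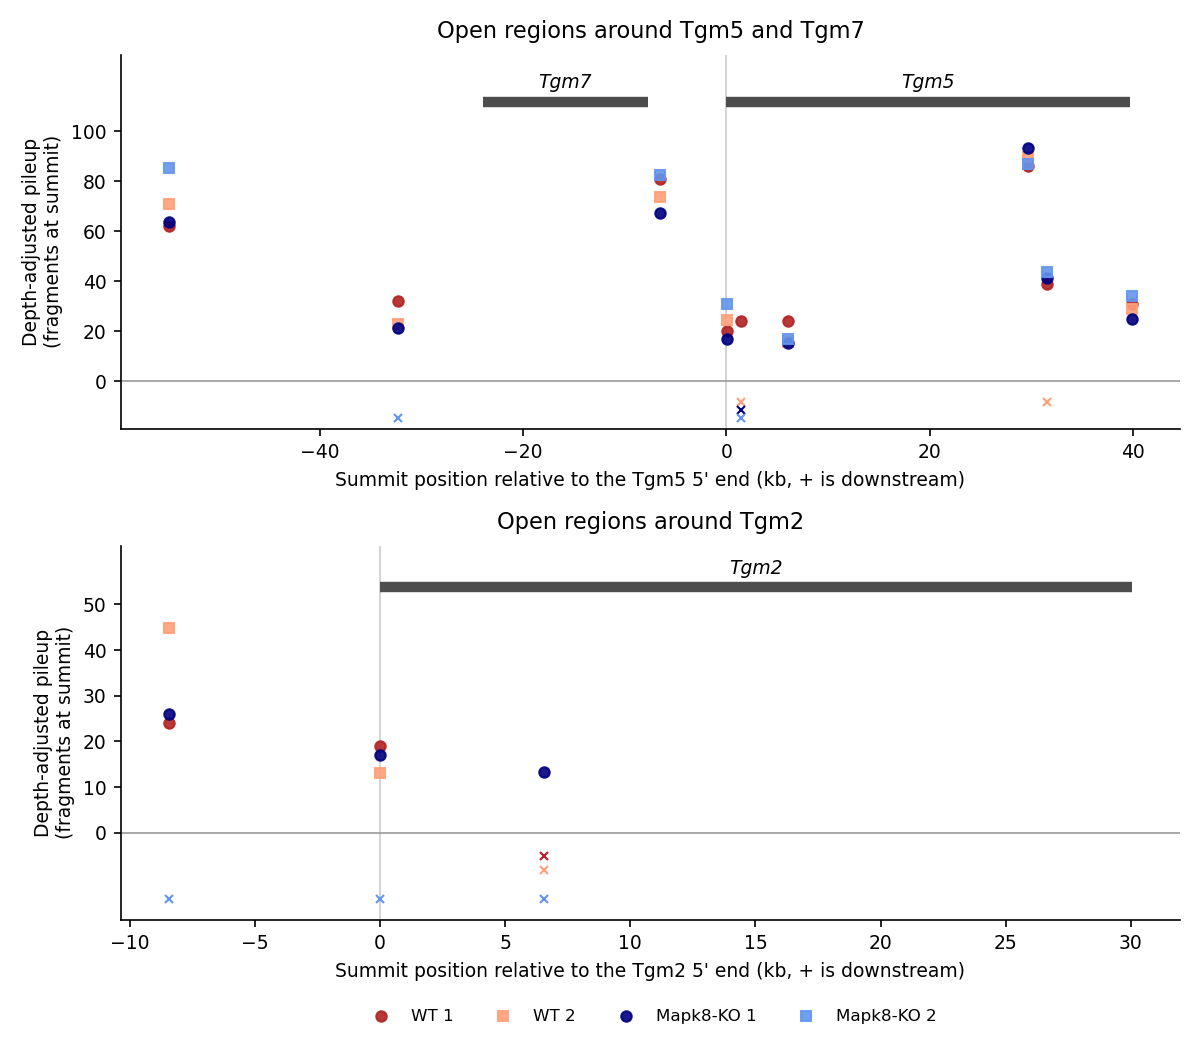
Depth-adjusted summit pileup (fragments) against distance from the 5′ end of Tgm5 (upper panel, with Tgm7 upstream) and of Tgm2 (lower panel), in kb, with libraries, crosses and gene bodies drawn as for Tgm3. No point lies over the Tgm7 body, and Mapk8-KO 2 has only crosses in the Tgm2 panel.

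Tgm6 (chr2:130112416-130154232) had no open region in its body or near its start. The 1 region of its window was the promoter of Snrpb, a splicing factor gene (chr2:130178716-130179841). It was the only transglutaminase-window region whose fold percentiles separated the genotypes by 10 points or more. They were 13.5 and 28.4 in WT and 39.0 and 38.6 in Mapk8-KO, a gap of 10.2 points, just past the threshold. That 1 of 23 is 4.35%, and 4.07% of all shared regions were ranked higher in Mapk8-KO by this rule and 4.65% higher in WT. The next region in that direction, upstream of Tgm5, had a gap of -0.0772, that is an overlap. Adjusted pileups of the Snrpb promoter were 17.0 and 24.6 in WT and 25.1 and 35.7 in Mapk8-KO, and the log2 difference of -0.55 (SE 0.30) did not pass the test (limma, adjusted p = 0.538).

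Over all 23 shared transglutaminase regions, no difference between genotypes passed limma's test at an adjusted p of 0.05. By that test 86 of 40159 shared regions (0.214%) were higher in WT and 8 (0.0199%) higher in Mapk8-KO. The adjusted p of the 23 ran from 0.458 to 0.987, and their log2 differences from -0.55 at the Snrpb promoter to 0.55 at the Tgm3 promoter, with SEs of 0.18 to 0.31. Of the 23, 12 were higher in WT, and the median was 0.03. A missed threshold does not show that the regions were equally open. The 95% interval of the Tgm3 promoter reached 1.08 on the log2 scale, and that of the even Tgm5 intron region at 29644 bp ran from -0.40 to 0.33.

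**Figure D5:**
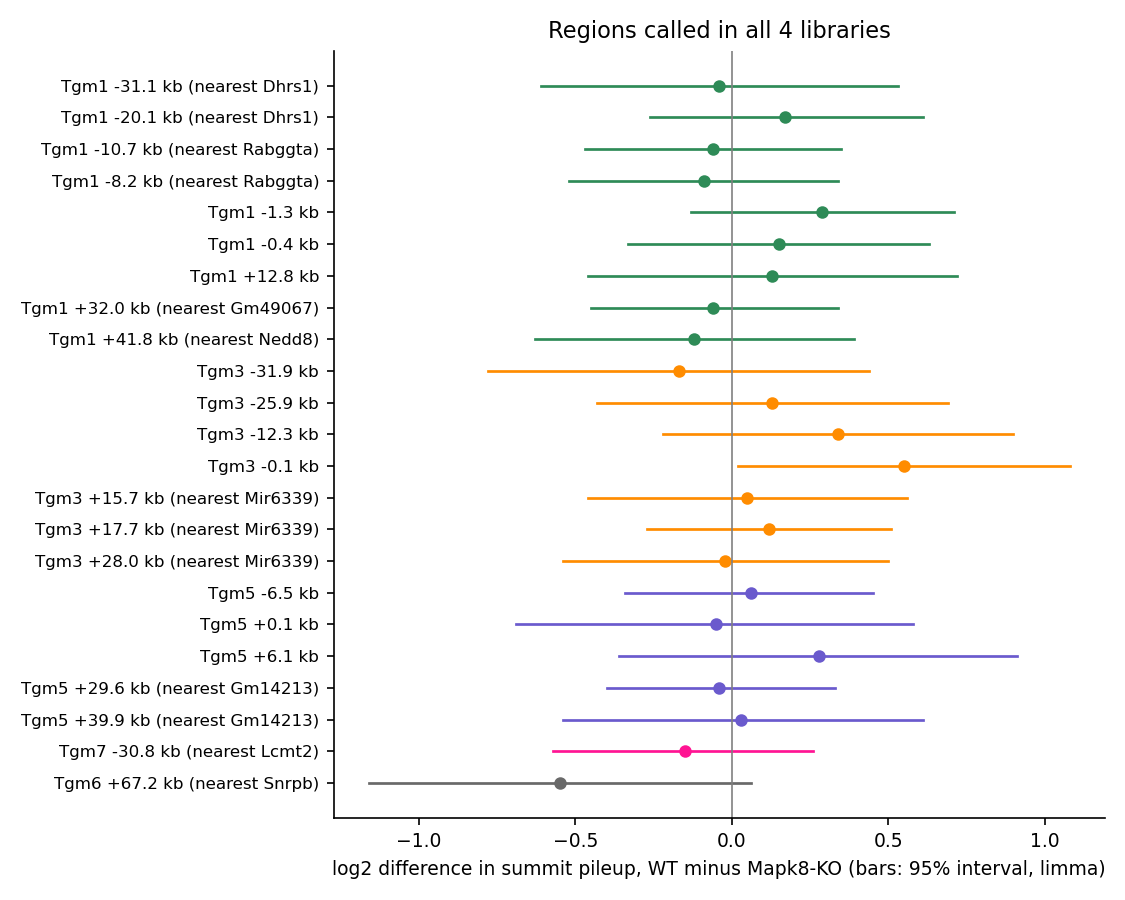
Log2 difference in summit pileup, WT minus Mapk8-KO, with its 95% interval from limma for the 23 regions called in all 4 libraries, grouped by gene and labelled by distance from the gene's 5′ end (kb) and, where another gene's start is nearer, by that gene. The interval lies off 0 at the Tgm3 promoter only, from 0.02 to 1.08, before adjustment for the 40159 regions tested.

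In sequence the 40 regions were much like the rest. AP-1 matches stood in 11 of 40 (27.5%, against 23.7% of all regions), C/EBP in 5 (12.5%, against 11.4%), KLF in 4 (10.0%, against 13.3%), p63 in 2 (5.00%, against 8.78%), CREB/ATF in 2 (5.00%, against 0.772%) and GRHL in 1 (2.50%, against 5.19%). Median GC content was 50.2% against 49.4%, and median width 406 bp against 410 bp. More of the 40 lay within 2 kb of a start site, 15 of 40 (37.5%) against 26.7%. The AP-1 matches were spread over Tgm1 with 5 regions, Tgm3 with 4, and Tgm2 and the Tgm5 and Tgm7 interval with 1 each. Of the 8 shared transglutaminase regions with an AP-1 match, 6 were higher in WT (75.0%), with a median log2 difference of 0.13. Of the 15 without one, 6 were higher in WT (40.0%), with a median of -0.04. Over all shared regions the same figures were 68.0% and 0.13 with an AP-1 match, and 43.2% and -0.05 without, so the family's shares lay near those of all shared regions.

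Genes that work with the transglutaminases were taken as a list of 22 genes of the cornified envelope and its assembly and 3 lysosomal proteases (Lgmn, Ctsl and Ctsd) with a part in the processing of epidermal transglutaminases. Of these 25 genes, 24 had at least 1 region within 35 kb for which theirs was the nearest start, 103 regions in all. Limma called 1 of the 52 shared ones higher in WT (1.92%, against 0.214% of all shared regions) and 0 higher in Mapk8-KO. An unadjusted p below 0.05 was found for 6 (11.5%, against 10.4%), and the median log2 difference was -0.08. The called region lay near Sprr3, a small proline-rich substrate of Tgm1 and Tgm3 (chr3:92455147-92455541). Its pileups were 86 and 60 in WT and 45 and 20 in Mapk8-KO, with both WT libraries above both Mapk8-KO libraries, and the log2 difference was 1.29 (limma, adjusted p = 0.00574). With the deposited fold in place of pileup, or without a variance trend, limma called 0 of all 40159 shared regions, so not this one either. In those fits 2698 and 3898 regions had an unadjusted p below 0.05. By calls alone, 1 of the 103 was WT-specific (0.971%, against 2.17% of all regions), near Casp14, a protease of filaggrin breakdown, with 32 and 20 fragments. Those specific to Mapk8-KO numbered 2 (1.94%, against 1.65%), near the envelope protein gene S100a10 with 28 and 23 fragments and near the protease gene Ctsl with 25 and 13. Ranks separated the genotypes by 10 points at 2 regions higher in WT, near Sprr3 and Ctsl (3.85% of 52, against 4.65%), and at 1 higher in Mapk8-KO, near Ctsd (1.92%, against 4.07%). Regions of Ivl and Lor, which code for involucrin and loricrin, gave no call by limma, and 1 Ivl region had an unadjusted p below 0.05. The 6 regions below 0.05 went in both directions. Those near Ivl, Sprr1a and Ppl were higher in Mapk8-KO, with log2 differences of -0.62, -0.42 and -0.39. Those near Sprr3, Lgmn (0.54) and Ctsl (0.58) were higher in WT.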

How the data were processed

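Each library came with its own MACS2 peak list. As the methods describe, the authors aligned read pairs to mm10 with Bowtie2 and called peaks in paired-fragment mode. A list was deposited for each library. No Tn5 shift is stated. Tools named in the submitters' processing notes were Trimmomatic 0.36, STAR 2.5.3, Picard, SAMtools and MACS2. The deposited columns hold a score derived from the q value, the fold enrichment of the summit pileup over local background as a ratio, −log10 p and −log10 q, and the summit offset in bp. No read counts or total depths were used here. Intervals and tests cover the spread between libraries, which a figure legend of the study describes as independent samples.

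From the deposited fold and −log10 p, the summit pileup was solved for, and at least 99.996% of values came out whole within 0.05 fragments. Relative depth was the median deviation of log2 pileup over shared regions. Genes and start sites came from GENCODE M21, and peak ends lay within the chromosomes of GRCm38. Motifs were read from the same genome (pyfaidx 0.9.0.4) and promoter windows from RefSeq, which listed Tgm1, Tgm3, Tgm5, Tgm6 and Tgm7. Log2 pileups of the 40159 shared regions, centred per library, were fitted with limma 3.58.1 (R 4.3.3) using a mean-variance trend, and p was adjusted by Benjamini-Hochberg (0.05). The authors' differential test on reads could not be repeated on peak lists. Counts of regions called were compared by an exact permutation test (Python 3.11.15, scipy 1.17.1). In the simulated data used to try the limma procedure, changes were much larger than those found here, so power for small ones was not measured.

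Regions named by rule were those within 2 kb of a member's start, the best ranked one nearest to each member, genotype-specific and rank-separated ones, and for Tgm3 every region nearest to it. The region nearest to Tgm7 is counted but not reported singly here. Other regions described were picked after their values were seen. The genes, lists and motifs were chosen with earlier results of these data known. Alternatives changed the peak cutoff, list length, overlap, flank, rank measure, normalisation and libraries.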

Additional observations from a re-analysis of the deposited data

How the results depend on the processing

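Of 113 repeats of the results under other settings, 88 were labelled the same and 25 moved. A count was the same if it was equal or changed little, even where the region was another one. A difference or median was the same within the SD between libraries of a genotype. Changes of sign were not labelled, so the difference in regions called counted as the same from -5.50 to 5.50. In 10 limma fits no transglutaminase region was called, although calls over all shared regions ran from 0 with the deposited fold, where 2698 had an unadjusted p below 0.05, to 1577 higher in WT and 370 higher in Mapk8-KO without Mapk8-KO 1. The limma fit as reported gave 86 and 8, quantile normalisation 26 and 3, a fit without the variance trend 0 and 0 (3898 at an unadjusted p below 0.05), and fits without WT 1, WT 2 or Mapk8-KO 2 gave 59 and 6, 5 and 8, and 44 and 2.

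The Mapk8-KO-specific Tgm1 region remained so with q at most 0.001, with 50% cover, with a 10 kb flank and among regions nearest to a member. With lists cut to equal length it was no longer Mapk8-KO-specific, and the 1 such region was the one 8050 bp upstream of Tgm3. When a peak had to cover 50% of the merged region, 1 WT-specific region appeared, the one 25932 bp upstream of Tgm3, which all 4 libraries call at 1 bp. The Snrpb promoter in the Tgm6 window, 1 region ranked higher in Mapk8-KO, went to 0 with lists of equal length, a 10 kb flank, regions nearest to a member, −log10 p in place of fold, a gap of 20 points, and percentiles within whole lists, the last chosen after seeing the data. The Tgm1 median log2 difference moved from -0.04 to 0.14 with a 10 kb flank and 0.15 with regions nearest to Tgm1, both of which leave out regions of neighbouring genes.

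Leaving out 1 library at a time moved the WT minus Mapk8-KO difference in regions called from -5.50 to 5.50, WT-specific regions from 0 to 4 (4 without Mapk8-KO 1, 3 without WT 2), Mapk8-KO-specific ones from 1 to 5 (5 without WT 1, 2 without Mapk8-KO 2), those ranked higher in WT from 0 to 5 (5 without WT 1) and those ranked higher in Mapk8-KO from 1 to 4 (4 without WT 2). Gene medians ran from 0.01 to 0.15 for Tgm1, 0.06 to 0.42 for Tgm3 (0.42 without WT 1), -0.09 to 0.27 for Tgm5 (0.27 without Mapk8-KO 2), -0.80 to -0.28 for Tgm6 and -0.23 to 0.31 for Tgm7. These medians cover all regions called in every library left in, so the set of regions changed too. The Tgm1 values were all opposite in sign to the -0.04 of all libraries. With 1 library left in a genotype, its spread was taken from the other.

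Libraries share only a replicate number. Their deviations correlated at 0.0392 over 40159 shared regions, and a replicate block raised the limma calls to 273 and 36 and left the transglutaminase results as they were, with 0 calls and a Tgm3 median of 0.12. With 2 libraries per genotype and uncalled regions without a value, differences of weak regions such as those of Tgm2 could not be sized.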
